A study of Rattus norvegicus with 4 samples.

Results

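The fatty acid elongases Elovl1 to Elovl7 and the desaturases Scd, Fads1 and Fads2 were examined in liver RNA of lean and obese WNIN/Ob rats. The 10 genes were listed by name, and a gene was measured through the probe set to which the platform annotation gives its symbol alone. Of these 10 genes 7 had such a probe set, 1 each, among 14506 genes measured in the series: the elongases Elovl2, Elovl3, Elovl5 and Elovl6 and all 3 desaturases. Elovl1, Elovl4 and Elovl7 were not analysed here.

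Elongases sit in the membrane of the endoplasmic reticulum and catalyse the first, rate-limiting reaction of a cycle that adds a pair of carbons to an acyl-CoA. Desaturases of the same membrane insert a cis double bond, with electrons passed on by cytochrome b5 and its reductase. In liver, Elovl6 and Scd turn the palmitate made from carbohydrate into stearate and oleate, the main acyl chains of stored triglyceride. Fads2, Elovl5, Fads1 and Elovl2 act in turn on dietary linoleate and linolenate to make arachidonate and the longer polyunsaturated chains of membranes.

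WNIN/Ob rats come from a Wistar colony in Hyderabad, India, and are either obese or lean. The labels give the phenotype of each group and no genotype. All animals were males of 4 months, fed stock diet without restriction and given no treatment. Liver RNA of 4 lean rats made up the lean pool and that of 4 obese rats the obese pool, and each pool was run on 2 arrays, called original and technical replicate in the labels. Every comparison is therefore between 2 pools, no test across animals was possible, and the spread given is that of measurement alone.

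Values are RMA intensities on the log2 scale, and differences are obese minus lean between the means of 2 arrays. Brackets after a fold give its range when each lean array is set against each obese array, 4 pairs in all. A gene passed the 1.5-fold rule when its pools differed by that factor, their nearest arrays lay at least 0.25 apart and the higher pool reached 5.48, the median of all genes. The 2-fold rule asked for a gap of 0.5. Since probe sets differ in brightness, levels are compared between pools for 1 gene and never between genes.

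Hepatocyte markers differed little between the pools, and muscle markers differed widely. All 12 hepatocyte markers, such as albumin (Alb), were above the median level, 0 passed the 1.5-fold rule and their median difference was 0.10. All 13 measured skeletal muscle markers were at least 2-fold lower in the obese pool. Their summed intensity on the linear scale was 32130 to 33580 on the lean and 477 to 490.5 on the obese arrays. Of 7 adipocyte markers 0 passed and 2 reached the median level. Their median difference was -0.29, with 4 of 7 below 0: Lep (-0.43), Adipoq (-0.36), Fabp4 (-0.33) and Plin1 (-0.29). Their summed intensity was nevertheless 520.5 to 565.2 on the lean and 661.2 to 691.3 on the obese arrays, and most of it came from Cidec, a lipid droplet protein. Cidec read 344.3 and 335.4 on the lean and 509.5 and 472.6 on the obese arrays. Of 8 stellate cell markers 3 were 1.5-fold lower: Des (-4.05), Dcn (-1.90) and Col1a1 (-0.97). The other stellate cell markers, from -0.34 for Lrat to 0.11 for Pdgfrb, did not pass. The difference of Des lay within the range of the skeletal muscle markers, -7.07 to -3.27. Whether it reflects stellate cells or muscle RNA was not tested. Of the markers of macrophages (8 measured) and endothelium (5) 0 passed in either direction. All of them were below 0, with medians of -0.25 and -0.09. Of the bile duct (4 measured) and skin (4) markers 0 reached the median level, so none could pass. The part that muscle RNA in the lean pool plays in the values below was not tested. Centring the arrays on the hepatocyte markers shifts the difference of every gene by the same amount, for instance Elovl5 from 0.76 to 0.70. That shift was too small to change a call among the elongases and desaturases. It does not bear on the part of muscle RNA.

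Of the 7 measured genes, 5 were at least 1.5-fold higher in the obese pool and 0 lower. Over all genes the share was 2.19% higher (317 genes) and 2.43% lower (352 genes), a split that cyclic loess between arrays moved to 227 higher and 400 lower. These shares are of all 14506 genes, of which 7555 reached the median level and could pass, beside 6 of the 7. The 2-fold rule was passed upward by 2 of the 7, Elovl6 and Scd, against 0.572% of all genes, and downward by 0, against 1.48%. Arrays of the pools did not overlap for 6 of the 7, but this held for 46.0% of all genes. The median difference was 0.76 for the 7 genes and 0.03 for all genes. In bulk liver, fewer cells of a type and less RNA per cell cannot be told apart.

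**Figure D1:**
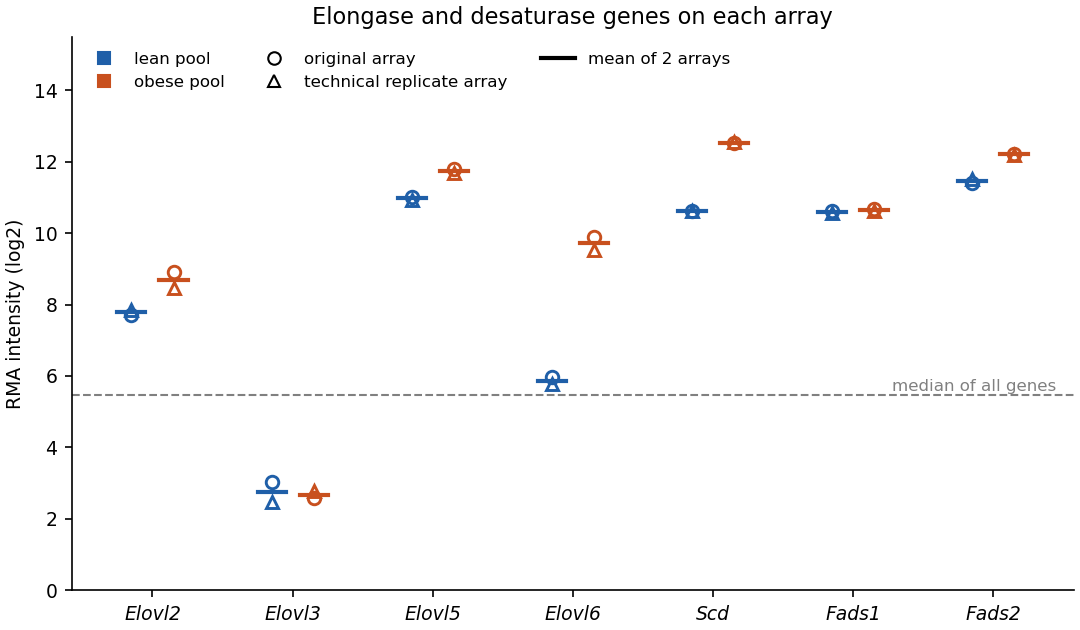
RMA intensity (log2) of the 7 measured elongase and desaturase genes on each of the 4 arrays, with a bar at the mean of the 2 arrays of a pool and a dashed line at the median of all genes. Elovl6 stood at 5.96 and 5.77 on the lean and at 9.89 and 9.54 on the obese arrays, Fads1 differed little, and Elovl3 lay below the line on every array.

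The widest gap was that of Elovl6, the elongase of palmitate and palmitoleate. Its log2 intensity was 5.96 and 5.77 on the lean arrays and 9.89 and 9.54 on the obese arrays. Both obese arrays were far above both lean arrays, and the lean arrays themselves lay above the median level. The pools stood at 5.87 ± 0.14 and 9.71 ± 0.25 (SD, n = 2 arrays each), a 14.4-fold excess in the obese pool (11.9 to 17.5). By size of the difference it was number 3 of 14506 genes from the highest. An offset of 16 added to the linear intensity, which shrinks differences of dim genes, left a difference of 3.53 against 3.85.

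Scd, the stearoyl-CoA desaturase that makes oleate and palmitoleate, had the closest replicate arrays and the other difference past the 2-fold rule. Its arrays read 10.62 and 10.63 in the lean pool and 12.52 and 12.55 in the obese pool. The fold was 3.76 (3.73 to 3.79), and Scd was number 14 of all genes. Within an array, the ratio of Elovl6 to Scd was higher in the obese pool by 1.94 on the log2 scale (1.65 to 2.23), so the 2 genes of the palmitate branch differed between pools by unlike amounts.

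Fads2 and Elovl5, of the polyunsaturated branch, were higher by smaller folds. Fads2, the desaturase that takes the first step from linoleate, read 11.39 and 11.51 on the lean and 12.23 and 12.19 on the obese arrays, 1.69-fold higher (1.60 to 1.79). Elovl5, which lengthens the product of Fads2, read 11.02 and 10.94 on the lean and 11.79 and 11.69 on the obese arrays, also 1.69-fold higher (1.58 to 1.80). In both genes the lowest obese array exceeded the highest lean array, and the spread within a pool was small beside the gap. The within-array ratio of Fads2 to Elovl5 shifted by 0.00 between pools (-0.13 to 0.13).

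Elovl2, the elongase of the longest polyunsaturated chains in liver, had the widest range over the alternatives among the 5 members past the 1.5-fold rule, 0.62 to 1.20. It read 7.71 and 7.85 in the lean pool and 8.91 and 8.47 in the obese pool, 1.88-fold higher (1.53 to 2.30). The obese arrays were both above the lean arrays but 0.44 apart from each other. Without the obese technical replicate array the difference was 1.13, which passes the 2-fold rule and brings that count to 3, and without the obese original array it was 0.69, in place of 0.91. The ratio of Elovl2 to Elovl5 shifted by 0.15 (-0.13 to 0.44), a range that includes 0.

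Fads1, the desaturase that makes arachidonate, stood nearly level between the pools while Fads2 did not. It read 10.61 and 10.57 on the lean and 10.67 and 10.63 on the obese arrays, a fold of 1.05 (1.02 to 1.07). The lean and obese arrays did not overlap, yet the difference of 0.06 ranked number 6344 of all genes and took the other sign with cyclic loess (-0.015) and with quantile normalisation (-0.0042). Within an array, the ratio of Fads2 to Fads1 was higher in the obese pool by 0.69 (0.61 to 0.77). Such a ratio shows unequal change of the 2 transcripts and does not show that Fads1 was constant.

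Elovl3, an elongase of saturated and monounsaturated chains best known from skin and brown fat, was dim in both pools. Its arrays read 3.03 and 2.46 in the lean and 2.58 and 2.78 in the obese pool. The pools overlapped, both lay below the median level, and no fold is given. No detection call was used here, so the transcript is not known to lie above background.

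**Figure D2:**
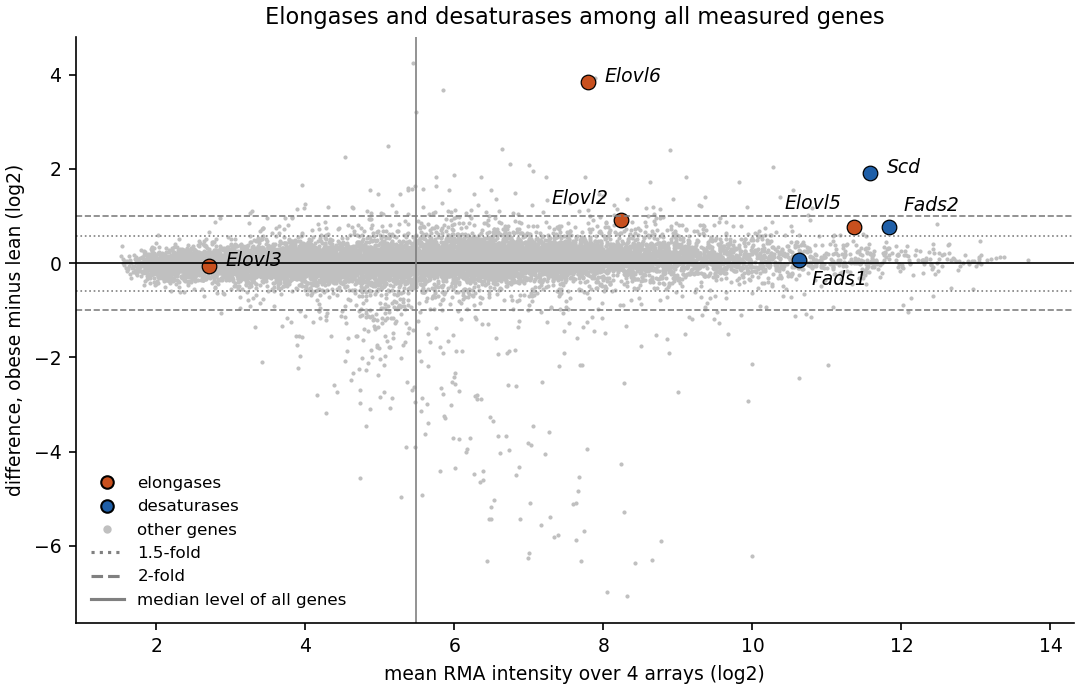
Difference between the pools (log2, obese minus lean) against the mean log2 intensity over 4 arrays for all 14506 genes, with the 7 elongase and desaturase genes marked. Elovl6 at 3.85 and Scd at 1.91 stand above the 2-fold line, Elovl2, Elovl5 and Fads2 lie between the 1.5-fold and 2-fold lines, and Fads1 and Elovl3 lie near 0.

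Sequences before the annotated starts of 4 genes are shown because these genes differ in whether their transcripts were higher: Elovl5, Elovl2 and Fads2 were, and Fads1 was not. RefSeq windows of assembly GRCr8 were found for 9 of the 10 genes, in 10 entries. Elovl6, the gene of widest difference, had none, so no motif count below covers it. The windows of Scd, Elovl1 and Elovl7 lay wholly inside their annotated genes and are not printed. A further entry of Elovl2, with 17 bases before its gene, is not printed either. Each run below reads 5′ to 3′ and ends where the outermost annotated transcript of its gene begins, so that no base of its annotated transcripts is printed. Elovl5 covers chr8:87670914-87671163, plus strand; Elovl2 covers chr17:23750100-23750349, plus strand; Fads2 covers chr1:216172191-216172283, minus strand; Fads1 covers chr1:216252442-216252604, plus strand. Capitals mark matches, on either strand, to the NF-Y box CCAAT, the E-box CACGTG and the Sp1 box GGGCGG.
Elovl5: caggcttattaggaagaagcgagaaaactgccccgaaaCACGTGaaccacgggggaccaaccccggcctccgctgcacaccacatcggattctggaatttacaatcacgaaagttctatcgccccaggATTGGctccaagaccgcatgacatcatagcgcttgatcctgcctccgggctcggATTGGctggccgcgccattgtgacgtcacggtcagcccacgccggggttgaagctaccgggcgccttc
Elovl2: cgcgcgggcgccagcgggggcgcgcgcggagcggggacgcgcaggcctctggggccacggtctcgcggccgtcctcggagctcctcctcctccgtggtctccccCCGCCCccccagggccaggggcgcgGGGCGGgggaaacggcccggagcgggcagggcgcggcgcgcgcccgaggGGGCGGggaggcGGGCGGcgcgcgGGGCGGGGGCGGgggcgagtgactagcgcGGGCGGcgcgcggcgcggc
Fads2: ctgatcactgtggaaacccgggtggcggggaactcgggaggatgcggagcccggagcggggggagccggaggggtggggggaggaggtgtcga
Fads1: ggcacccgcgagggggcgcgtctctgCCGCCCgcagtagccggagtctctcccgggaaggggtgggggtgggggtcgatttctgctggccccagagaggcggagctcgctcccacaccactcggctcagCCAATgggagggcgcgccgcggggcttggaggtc

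The same letters were searched in the 250 bases before the start of all 33469 RefSeq entries. The NF-Y box was in 34.0% of the windows and in 4 of the 10 entries of these genes. The Sp1 box was in 30.5% and in 6 of 10, with Elovl2 counted in more than 1 entry. The E-box was in 5.59% and in 1 of 10, that of Elovl5. The core of the sterol regulatory element, TCACNCCAC, was in 0.974% of the windows and in 0 of the 10 entries. Direct repeats of AGGTCA were searched with 4 free bases between the copies, the type bound by LXR, and with 1 free base, the type bound by PPAR. The first was in 1 window (0.00299%), the other in 17 (0.0508%), and each was in 0 of the 10 entries. Elovl5 had 2 NF-Y boxes, Fads1 had 1 beside 1 Sp1 box, and Elovl2 had 7 Sp1 boxes in a window of 86.8% G and C. The printed bases of Fads2 held no match, although 1 Sp1 box lay nearer its start. No match of 1 motif overlapped a match of another. A match is a string of letters and not a shown binding site, and a missing match says only that the letters are not in this window.

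Beyond the elongases and desaturases, 71 genes in 9 lists of the same pathway were set out, of which 58 were measured. Of these 58, 11 were at least 1.5-fold higher in the obese pool and 3 lower, beside the 2.19% and 2.43% of all genes, and their median difference was 0.15. The median level was reached by 44 of the 58, against 7555 of 14506 genes. Of the genes that supply palmitate, 6 of 6 measured were higher, with a median of 1.31. Fatty acid synthase (Fasn) read 9.76 and 9.78 on the lean and 11.30 and 11.32 on the obese arrays and was 2.91-fold higher (2.87 to 2.95). Malic enzyme (Me1), which makes NADPH, was 2.69-fold higher and ATP citrate lyase (Acly), which makes cytosolic acetyl-CoA, 2.63-fold. Acetyl-CoA carboxylase alpha (Acaca), which makes malonyl-CoA, was 2.34-fold higher, and Thrsp, a lipogenic nuclear and cytosolic protein, 1.79-fold.

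The smallest difference of that list was 0.59 for Acacb, the carboxylase of the mitochondrial surface, at 1.51-fold (1.44 to 1.58). Its call was lost under 7 of 12 alternatives, where the difference was 0.51 to 0.58, including the removal of the lean original array (0.58) or of the obese original array (0.53). The ratio of Elovl6 to Fasn within an array was higher in the obese pool by 2.31 (2.01 to 2.60), and that of Scd to Fasn by 0.37 (0.36 to 0.38). The difference of Elovl6 thus exceeded that of Fasn by far more than the spread between arrays, and that of Scd by a small amount.

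Among the other steps of the elongation cycle, the 2 genes that could be judged did not share the size of Elovl6. Of 7 listed genes 4 were measured, and 0 of these passed the 1.5-fold rule in either direction, with a median of 0.04. Only 2 of the 4, Hsd17b12 and Tecr, reached the median level. Hacd4, with a difference of -0.15, and Tecrl lay below it in both pools and could not pass. The ketoacyl-CoA reductase Hsd17b12 had a difference of 0.26 and the enoyl-CoA reductase Tecr one of 0.23, which was 0.22 by its other probe set. Tecrl, a relative of Tecr, had the lowest difference, -1.06, at levels of 3.40 and 2.34 that lie below the median of all genes, and passed as lower only with no level filter.

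Of the 6 genes listed for electron supply to the desaturases, all forms of cytochrome b5 or its reductase, 1 passed the 1.5-fold rule in each direction. Whether these 2 serve the desaturases was not tested. Cyb5b, the cytochrome b5 of the outer mitochondrial membrane, read 8.95 and 8.89 on the lean and 9.69 and 9.52 on the obese arrays and was 1.61-fold higher (1.49 to 1.75). The microsomal form Cyb5a had a difference of -0.29 and the main reductase Cyb5r3 one of 0.27, and neither passed the rule. Cyb5r1, a further reductase of the family, read 6.66 and 6.65 on the lean and 5.79 and 5.57 on the obese arrays and was 1.97-fold lower (1.82 to 2.13).

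Of 6 other desaturases and hydroxylases measured, 3 reached the median level: Scd2, Degs1 with a difference of 0.34 and Fads6 with one of -0.04. Scd2, a close relative of Scd for which cross-hybridisation was not tested, was the 1 of 6 genes past the rule, at 6.06 and 6.31 on the lean and 7.04 and 6.67 on the obese arrays. Its fold was 1.59 (1.28 to 1.97), and the call was lost without the lean original array (0.55), without the obese original array (0.48), on the technical replicate arrays alone (0.36) and with an offset of 16 (0.57). Fads3, of the same family as Fads1 and Fads2, had a difference of 0.09 with overlapping arrays. Degs2, a hydroxylase and desaturase of sphingoid bases, had the lowest, -0.30. Both Fads3 and Degs2 lay below the median level in both pools and could not pass. The within-array ratio of Scd to Scd2 was higher in the obese pool by 1.24 (0.92 to 1.56).

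Among acyl-CoA synthetases and carriers 2 of 9 were higher and 1 lower. Acsl5, which activates long-chain fatty acids, read 10.32 and 10.31 on the lean and 11.29 and 11.17 on the obese arrays and was 1.89-fold higher (1.80 to 1.98). The acyl-CoA binding protein Dbi was 1.51-fold higher (1.41 to 1.62), a call lost under 7 of 12 alternatives with differences of 0.51 to 0.58, including when the obese original array (0.54) or the lean technical replicate array (0.55) was left out. Acsl3 had a difference of 0.50 and passed the rule without the obese technical replicate array (0.69) and on the original arrays alone (0.72). Slc27a5, a liver transport protein with bile acyl-CoA synthetase activity, read 10.90 and 10.87 on the lean and 10.14 and 10.17 on the obese arrays and was 1.65-fold lower (1.62 to 1.68).

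Of 12 measured transcription regulators that act on these genes, 1 was higher and 0 lower, with a median of 0.05. Insig1, which holds the SREBP escort protein in the endoplasmic reticulum, read 9.76 and 9.72 on the lean and 10.48 and 10.38 on the obese arrays, 1.61-fold higher (1.53 to 1.69), and its other probe set had a difference of 0.92. The liver X receptor Nr1h3 had a difference of 0.52, Mlxipl, the carbohydrate response factor ChREBP, one of 0.10, and Srebf2 one of 0.13, none of them past the rule. Ppara, the receptor that drives fatty acid oxidation, had the lowest, -0.31. Srebf1 shares its probe set with Pemt and is not reported.

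Steps downstream of the polyunsaturated branch gave few calls. Of 5 measured genes of the peroxisomal steps to docosahexaenoate 0 passed, although all 5 differences were above 0, from 0.0044 for Abcd2 to 0.52 for the transporter Abcd3, with a median of 0.38. Abcd3 passed without the obese technical replicate array (0.59) and on the original arrays alone (0.65), and the thiolase Acaa1b passed on the technical replicate arrays alone (0.60). A further list held phospholipid acyltransferases, which are not all specific for polyunsaturated chains. Of the 6 measured, Mboat1 was the 1 past the rule, at 5.81 and 5.56 on the lean and 5.06 and 4.79 on the obese arrays. It was 1.69-fold lower (1.41 to 2.03). Its obese level lies below the median of all genes, so the fold has no firm size, and with an offset of 16 the call was lost (-0.54). Agpat3 had the highest difference of that list, 0.49, which passed at 0.59 without the obese technical replicate array and at 0.68 on the original arrays alone, where Lpcat4 passed as lower (-0.59). Lpcat1 carried the same value on all 4 arrays, as 8 probe sets of the table did, and says nothing of a difference. Of 4 ceramide synthases 0 passed, from -0.28 for Cers3 to 0.44 for Cers2, the form for very long chains. Only 1 of the 4, Cers2, reached the median level, so the others could not pass.

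**Figure D3:**
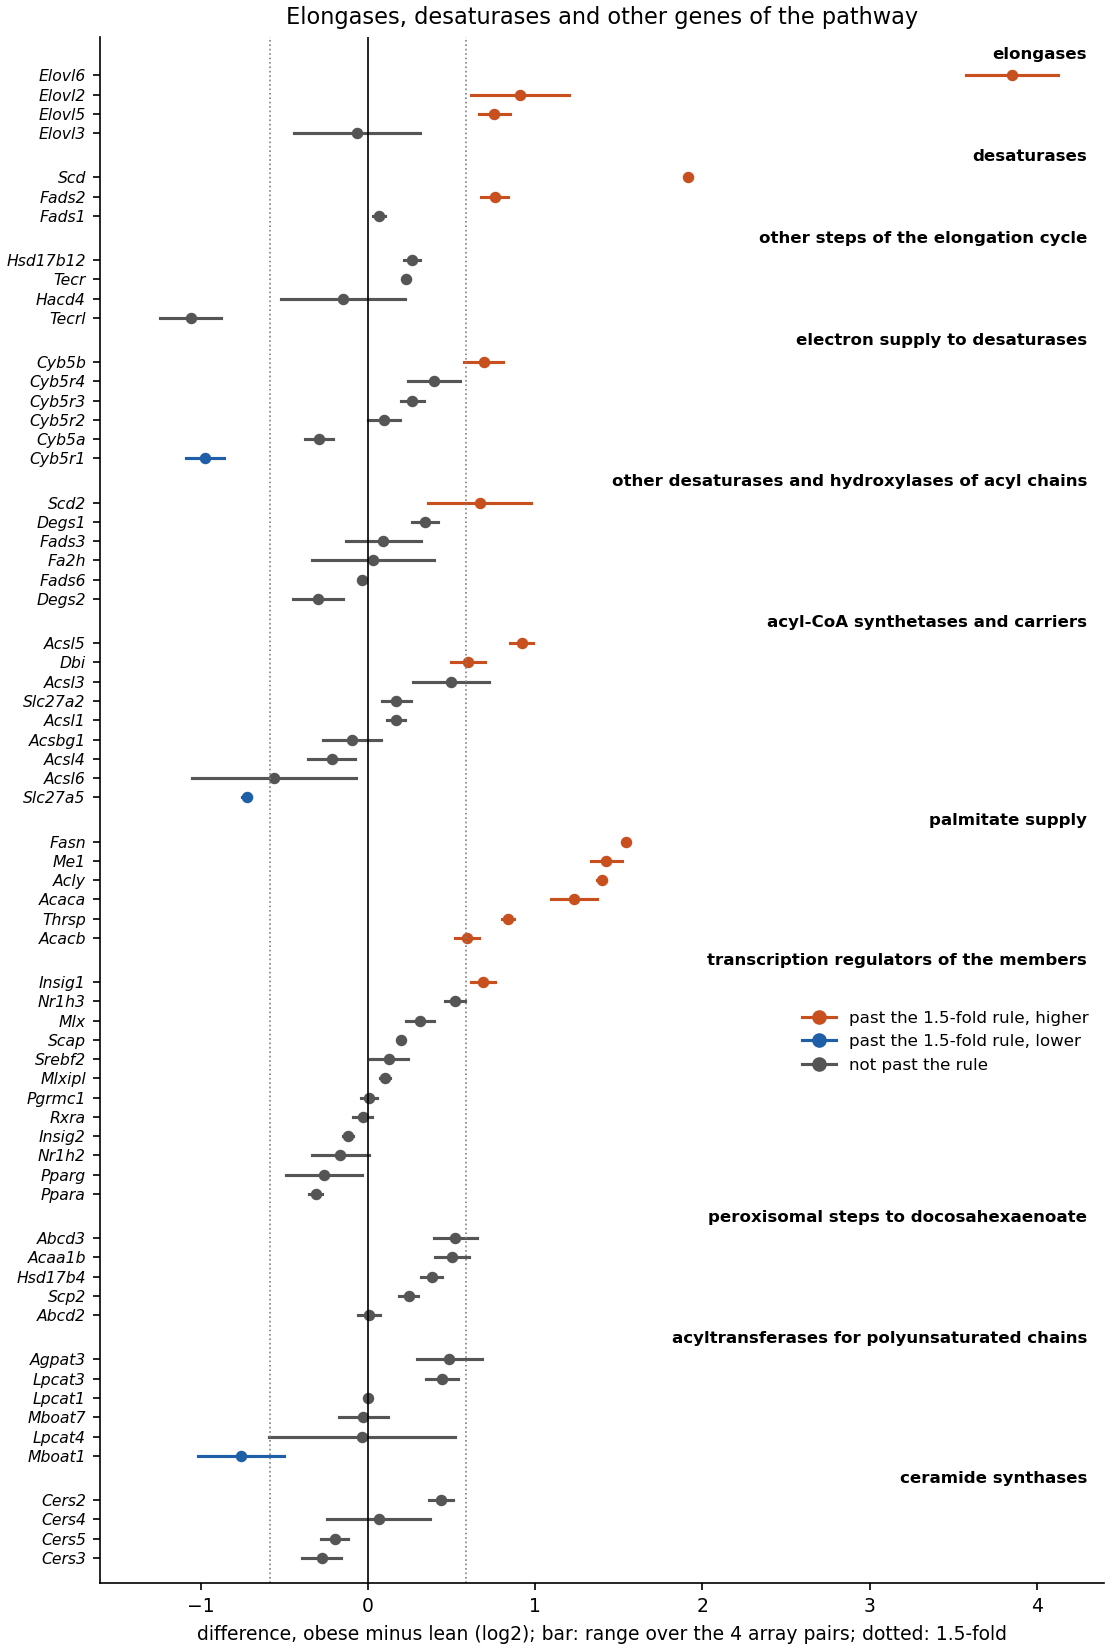
Difference between the pools (log2, obese minus lean) for the elongases, desaturases and 58 other genes of the pathway, with a bar for the range over the 4 array pairs and dotted lines at 1.5-fold. All 6 genes of palmitate supply lie to the right of the upper line, beside Elovl6 at 3.85 and Scd at 1.91. Of the 4 other elongation genes 2 reach the median level, and 0 pass the rule.

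Across the 4 arrays, the genes outside the family whose profiles lay nearest to that of Elovl6 were Pnpla3, Akr1b7 and Sdr16c6. Likeness was the Euclidean distance between log2 profiles centred on each gene's lean mean, at 0.36, 0.43 and 0.57 over these arrays of 2 pools. Symbols that begin with LOC, RGD or MGC were left out, as were genes whose higher pool lay below the median level. By size of the difference the 3 genes were numbers 2, 4 and 1 from the highest, beside number 3 for Elovl6. With 2 pools the distance mostly reflects that size and is no separate sign of shared regulation. Pnpla3, which encodes a lipid droplet acylhydrolase, read 5.82 and 6.02 on the lean and 9.90 and 9.80 on the obese arrays. The lean levels of Akr1b7 (4.00) and Sdr16c6 (3.33) lie below the median of all genes, so the size of their differences is not firm. Both genes were eligible only through the obese pool.

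Between arrays of 1 pool, 0 of the 7 elongase and desaturase genes differed by a factor of 1.5, against 172 of 14506 genes for the lean arrays and 484 genes for the obese ones. The largest gaps were 0.56 for Elovl3 in the lean pool and 0.44 for Elovl2 in the obese pool. The obese original array had the higher value for 5 of the 7 genes, and its upper quartile over all probe sets, 6.62, was above the 6.50 to 6.52 of the other arrays. With this array alone standing for the obese pool, 553 genes of the series were 1.5-fold higher in place of 317, and the count among the 7 genes was 5, as with all arrays.

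**Figure D4:**
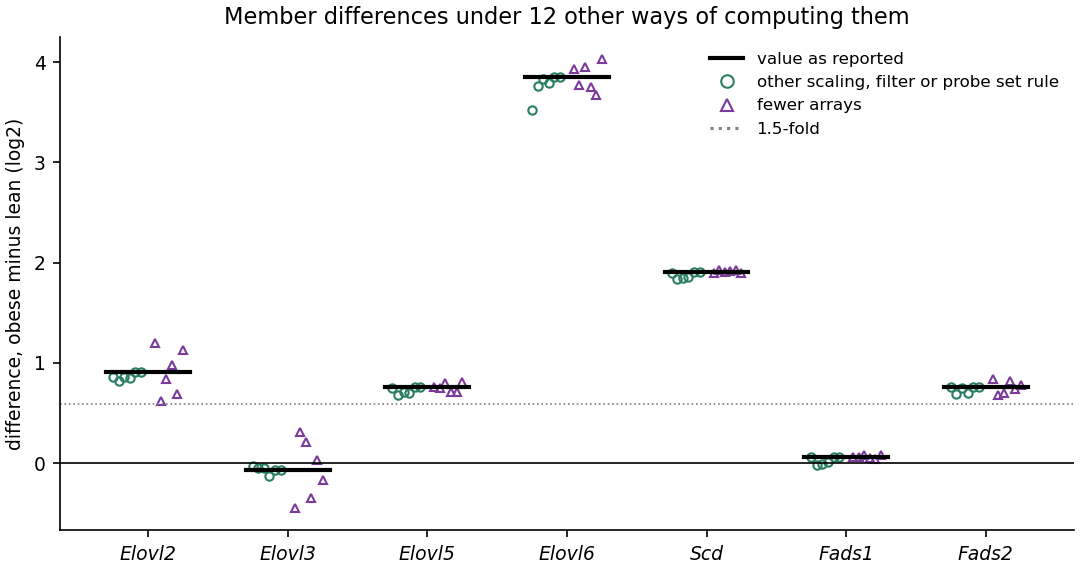
Difference between the pools (log2, obese minus lean) of the 7 genes as reported (bar) and under 12 other ways of computing it, split into other scalings, filters or probe set rules (circles) and fewer arrays (triangles). Elovl6 ran from 3.53 to 4.03 and Scd from 1.84 to 1.92, Elovl2, Elovl5 and Fads2 stayed above the 1.5-fold line, and Elovl3 fell on both sides of 0.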

How the data were processed

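Liver RNA of 1 lean and 1 obese pool was hybridised to 4 Affymetrix Rat Gene ST arrays, 2 per pool, from 100 ng of pooled RNA per the labels' protocols. The deposited values are intensities that the authors computed with RMA (background correction, normalisation between arrays and summary of probes), per the submitters' processing notes. They run from 2.31 to 14288 and were read as linear from these values. The software version and genome build are not given in the sources used here. Array intensities can be compressed at very dim and very bright levels, and how far folds there are understated was not tested.

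The log2 of each value was taken with no further normalisation. Of 29214 probe sets 15310 carried 1 gene symbol, 323 several and 13581 were not listed in the platform annotation; RefSeq (GRCr8) held 15279 of the gene identifiers and changed 0 symbols. The probe set with the highest mean stood for a gene. Promoter windows came from RefSeq by symbol. The size rules were tested on simulated data. The members, lists, rules and alternatives were chosen with earlier results of these data known. Named genes are all members, pathway genes past the 1.5-fold rule, the extremes of each list and the 3 profiles nearest to the member of largest difference; further genes were named after their values were seen. The motifs, the promoters printed and the pairs in within-array ratios were also chosen after the values were seen. Alternatives changed the offset, the normalisation (limma 3.58.1 in R 4.3.3), the level filter, the probe set rule and the arrays used. Python 3.11.15 was used otherwise. With 2 technical arrays per pool, their number limits the precision, and no detection calls or scanner files were used here.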

Additional observations from a re-analysis of the deposited data

How the results depend on the processing

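Under all 12 alternatives 5 of the 7 measured genes were 1.5-fold higher and 0 lower, and 2 or 3 passed the 2-fold rule upward. Each member has 1 probe set and the 5 reach the level filter, so the filter and probe set alternatives left their values unchanged. Differences on fewer arrays fall within the array-pair ranges, whose lowest log2 value among the 5 was 0.62, already past 1.5-fold. The count of 5 was therefore set in advance under those alternatives. The median difference of the 7 genes, 0.76, was 0.84 on the original arrays alone and 0.68 on the technical replicate arrays alone. Elovl2 ranged from 0.62 on the technical replicate arrays to 1.20 on the original arrays. The count of 1.5-fold higher genes over the series, 317, was 553 when the obese technical replicate array was left out and 615 when the lean one was left out as well. Of the other pathway genes, 8 to 14 were higher and 2 to 4 lower, a check added after seeing the data. The cause of these shifts was not tested. Other background corrections of the probes were not run, and signal over background is not known for any gene.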
